A study of Mus musculus with 6 samples.

Results

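The respiratory chain and its ATP synthase were examined gene by gene in hematopoietic stem and progenitor cells (HSPCs) of leukemic and control mice. Members were chosen by symbol, as nuclear genes whose names start with Ndufa, Ndufb, Ndufc, Ndufs, Ndufv, Cox4 to Cox8, Atp5, Uqcr or Sdha to Sdhd and the mitochondrial Nd, Co, Atp and Cytb genes, with at least 100 UMIs (unique molecular identifiers, each a counted RNA molecule) over the kept cells. Subunits and factors named otherwise, such as the complex III subunit Cyc1 and the complex IV factor Surf1, were not members. The rule found 111 symbols, and 107 of the 32285 genes in the files were members. The mitochondrial genome encodes 13 of them and the nuclear genome 94. Cox7b2, Cox8b, Cox8c and Ndufa4l2 fell short of the minimum, with 3, 0, 2 and 5 UMIs. Complex I held 7 mitochondrial subunits, 36 nuclear subunits, 8 assembly factors and Ndufb1-ps, which is annotated as a non-coding transcript. Complex II held 4 nuclear subunits and 4 assembly factors, and complex III held 1 mitochondrial and 8 nuclear subunits. Complex IV held 3 mitochondrial and 15 nuclear subunits and the supercomplex factor Cox7a2l, and complex V held 2 mitochondrial and 17 nuclear subunits.

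The study asked how an acute myeloid leukemia (AML) changes the healthy HSPCs that share its marrow. C57BL/6J mice of the CD45.1 allele, 8 to 12 weeks of age, received PBS or 1000000 cells of C1498, a murine AML line, and were analyzed at day 21. CD45.1 cells of the Lin- cKit+ Sca1+ (LSK) phenotype were sorted from bone marrow and profiled by droplet single-cell RNA sequencing, giving 3 PBS and 3 AML libraries. All AML libraries come from a single cell line as the leukemia, and whether a library pools mice was not stated in the sources used here.

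Complexes I to IV pass electrons from NADH and succinate to oxygen and, except for complex II, pump protons across the inner mitochondrial membrane, and complex V uses the resulting gradient to make ATP. Complexes I, III, IV and V are mosaics, with core subunits translated inside the mitochondrion and the remaining subunits imported after nuclear transcription, whereas complex II is nuclear in full. Quiescent hematopoietic stem cells are known for a low reliance on oxidative phosphorylation, and commitment to multipotent progenitors is known to be accompanied by more mitochondrial activity.

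Sequences are shown here for the genes whose counting or contrast bears on the results. The mitochondrial genes lie end to end on one genome, and mt-Atp8 and mt-Atp6, both subunits of complex V, share 43 bases of the same strand at chrM:7927-7969 (GRCm38, plus strand), so that reads there cannot be given to one gene alone. The shared stretch, 5′ to 3′, is printed in lower case.
mt-Atp8 and mt-Atp6 overlap: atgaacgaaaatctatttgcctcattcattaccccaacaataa
The promoter windows below run from 250 bases before to 50 after the RefSeq start (GRCm38.p6), and are shown for the ubiquitous complex IV genes Cox6a1 and Cox6b1, for Cox6b2, the restricted form of the latter, and for Cox5a, the nuclear member with the lowest p in MPP-2, and were chosen after the values were seen. Capitals mark exact matches, on either strand, to the letters GCGCATGC (NRF1), CCGGAAG (ETS) or AAGATGGC (YY1). The NRF1 letters were shortened to this core after matches to a longer form had been seen.
Cox6a1, chr5:115348909-115349208, minus strand: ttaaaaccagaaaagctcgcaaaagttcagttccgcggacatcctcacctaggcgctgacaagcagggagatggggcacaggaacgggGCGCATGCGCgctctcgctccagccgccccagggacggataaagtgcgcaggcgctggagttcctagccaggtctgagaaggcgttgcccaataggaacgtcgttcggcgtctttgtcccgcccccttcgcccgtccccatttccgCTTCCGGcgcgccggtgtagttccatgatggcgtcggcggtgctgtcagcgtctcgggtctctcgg
Cox6b1, chr7:30626065-30626364, minus strand: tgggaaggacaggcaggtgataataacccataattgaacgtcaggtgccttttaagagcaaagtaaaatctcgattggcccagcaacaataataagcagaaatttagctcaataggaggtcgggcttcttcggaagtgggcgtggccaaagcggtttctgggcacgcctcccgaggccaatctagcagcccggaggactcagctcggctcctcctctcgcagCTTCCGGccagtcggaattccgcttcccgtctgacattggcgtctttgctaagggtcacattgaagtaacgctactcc
Cox6b2, chr7:4753045-4753344, minus strand: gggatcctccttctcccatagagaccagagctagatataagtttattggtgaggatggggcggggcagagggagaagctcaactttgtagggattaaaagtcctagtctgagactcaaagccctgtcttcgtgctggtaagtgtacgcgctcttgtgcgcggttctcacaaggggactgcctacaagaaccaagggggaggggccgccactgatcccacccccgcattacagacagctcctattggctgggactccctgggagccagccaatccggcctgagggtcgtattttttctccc
Cox5a, chr9:57520982-57521281, plus strand: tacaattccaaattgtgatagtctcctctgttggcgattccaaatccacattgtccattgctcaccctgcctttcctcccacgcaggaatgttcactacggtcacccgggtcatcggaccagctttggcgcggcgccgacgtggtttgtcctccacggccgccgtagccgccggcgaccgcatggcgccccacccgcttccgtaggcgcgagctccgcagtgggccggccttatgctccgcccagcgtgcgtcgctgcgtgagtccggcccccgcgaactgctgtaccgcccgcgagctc
The window of Cox6a1 held 2 overlapping NRF1 matches, one on each strand, and one ETS match, that of Cox6b1 one ETS match, and those of Cox6b2 and Cox5a none of the 3 motifs. The windows of Ndufa4 and Atp5g1, also among the members with the lowest p between classes, held none either. A promoter window was found for 77 of the 94 nuclear members. The ETS letters were in the windows of 28.57% of these genes and of 9.93% of all 27025 genes with a window, the NRF1 letters in 15.58% and 3.05%, and the YY1 letters in 12.99% and 3.19%. Member windows held a median of 20 CG dinucleotides against 7 over all windows, and Cox6b1 held 17 where Cox6b2 held 10. These matches describe the letters only.

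The authors' cell table kept 16822 cells of 5 libraries, 6838, 934 and 4398 in PBS replicates 1 to 3 and 693 and 3959 in AML replicates 1 and 3. It held none of AML replicate 2, so comparisons set 3 PBS against 2 AML libraries. Total counts in kept cells ranged from 1945659 to 32123508 UMIs per library, and the median per cell from 2393 in AML replicate 1 to 9586 in PBS replicate 2. AML replicate 2 shared cell barcodes with every other library, 1223 of the 1256 barcodes of PBS replicate 2 among them, and between 11 and 450 kept cells per library carried a barcode seen in another of the 5 libraries. With AML replicate 2 counted, the share of kept cells with a barcode in another library was 10.53% to 46.83% in 4 libraries, and all 934 kept cells of PBS replicate 2 had one. All 12 markers of the LSK sort were detected in each of the 5 libraries, with a summed level of 1254 to 1469 CPM (counts per 1000000) in AML and 1396 to 1594 CPM in PBS. Of the other cell types, the 9 neutrophil markers summed to 1806 and 1807 CPM in AML against 772 to 1327 CPM in PBS. Prtn3 made up most of that sum, at 1112 and 1270 CPM in AML against 607 to 1031 CPM. Mpo, Elane, Ctsg and Ltf were also higher in both AML libraries than in every PBS library. Mpo was at 396.8 and 191.5 CPM against 81.03 to 103.0 CPM, and Ltf had at most 3 UMIs per library. S100a8 was lower in both AML libraries, at 0.514 and 0.761 CPM against 0.769 to 3.86 CPM, with 1 UMI in AML replicate 1. Camp, Ngp and S100a9 overlapped, and S100a9 was at 0 in AML replicate 1. Summed levels were also uneven for the 8 erythroid markers, at 275.0 and 586 CPM in AML against 785 to 1167 CPM. Car2 made up most of that sum, at 248.8 and 394.3 CPM in AML against 592.0 to 750.3 CPM. Klf1 was also lower in both AML libraries, at 0 and 1.848 CPM against 2.639 to 3.076 CPM, and the other erythroid markers overlapped. Klf1 and Hba-a1 were among the markers at 0 in AML replicate 1. The summed levels of the B and plasma cell, T and NK cell, monocyte, mast cell and megakaryocyte lists overlapped between groups. Lyz2 made up most of the monocyte sum, and 5 of its 7 markers were higher in both AML libraries than in every PBS library, such as Ccr2, at 9.77 and 8.08 CPM against 0.769 to 2.65 CPM, and Csf1r, at 7.20 and 9.42 CPM against 0.673 to 3.12 CPM. C1qa, Cd3e and Trac were at 0 in AML replicate 1. The share of cells the authors placed in S or G2M was also uneven, since G1 held 14.72% of AML replicate 1, 49.0% of AML replicate 3 and 55.89% to 58.24% of the PBS libraries. The part of these differences in the values below was not tested.

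The mitochondrial share of transcripts was lower in the AML libraries, and the nuclear share overlapped between groups. Transcripts of the 13 mitochondrial genes made up 0.910%, 1.19% and 1.14% of UMIs in PBS replicates 1 to 3, and 0.706% and 0.852% in AML replicates 1 and 3. Every AML value lay below every PBS value, with a mean of 0.779% ± 0.103 (SD, n = 2) in AML and 1.08% ± 0.150 (SD, n = 3) in PBS. The 94 nuclear members took 2.96%, 3.02% and 3.71% in PBS and 4.37% and 3.32% in AML. The log2 difference of the nuclear share was 0.24, and 0.048 without AML replicate 1.

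The ratio of mitochondrial to nuclear UMIs, in which the library total cancels, was 0.308, 0.394 and 0.308 in PBS and 0.162 and 0.256 in AML. AML was 0.609 times PBS, a log2 difference of -0.71, and the groups did not overlap. A two-sided exact permutation test over libraries gave p = 0.1, the smallest that 3 against 2 allows, and gave p = 0.2 for the mitochondrial share and p = 0.3 for the nuclear share, so no share met a threshold of 0.05. The p-values measure the spread between libraries only. The ratio stood at 0.185 in the 106 cells of AML replicate 2 that passed an own filter of at least 1000 genes and at most 10% mitochondrial UMIs. Of these cells, 75 (70.75%) carried a barcode also found in another library, and which library their RNA came from was not tested. AML replicate 1 decided most of the size: without it the log2 difference of the ratio was -0.38, and without AML replicate 3 it was -1.05.

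**Figure D1:**
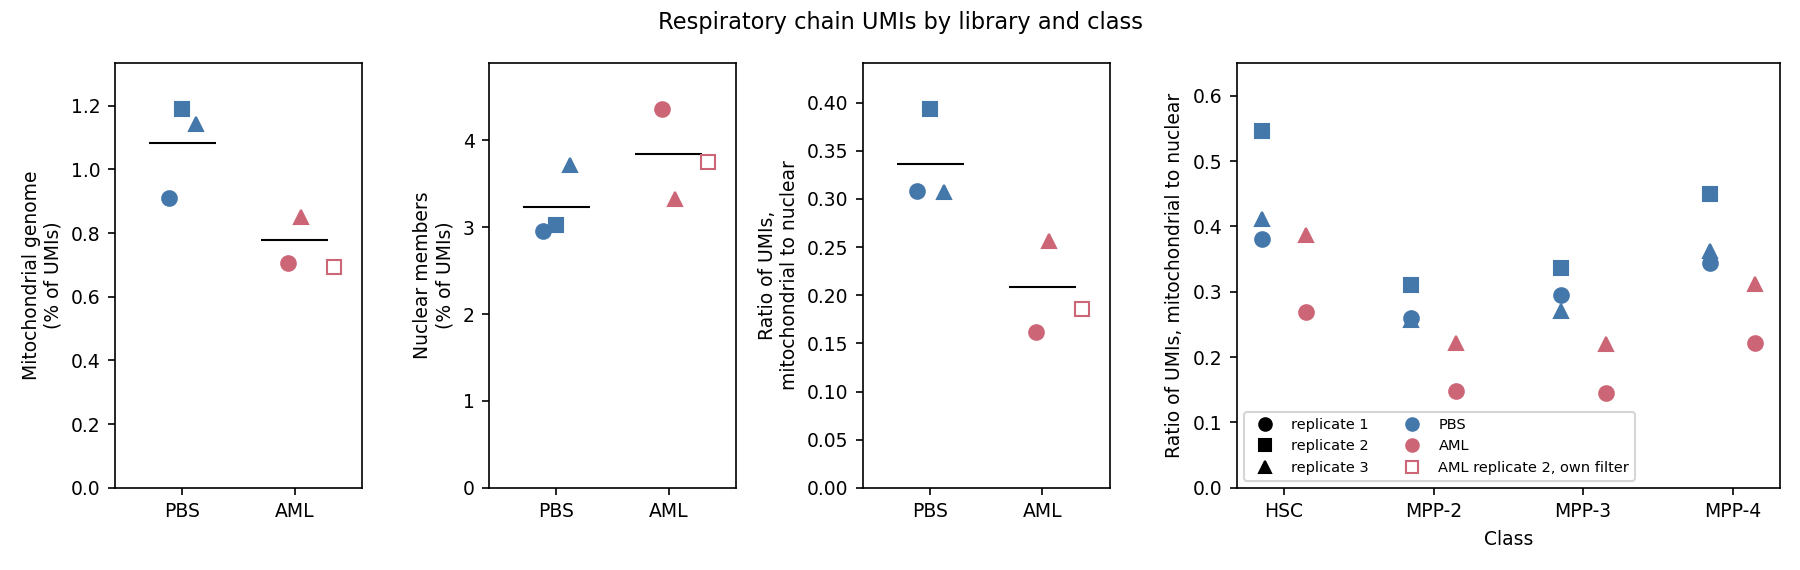
Share of UMIs from the 13 mitochondrial genes, share from the 94 nuclear members, and their ratio, by library (points, with the group mean as a line) and the ratio by class (right), all from 0. AML libraries sit at 0.162 and 0.256 in the ratio, below the PBS libraries at 0.308 to 0.394. The open square is AML replicate 2 under the own filter, where 75 of 106 cells carried a barcode also found in another library.

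The lower ratio was found in most subsets of cells with at least 20 cells per library, where fewer cells of a type in a sum and less RNA per cell cannot be told apart. AML lay below PBS in 3 of 4 classes, the groups overlapping in HSC, where AML stood at 0.269 and 0.387 and PBS at 0.380, 0.411 and 0.546. The HSC value of AML replicate 1 rests on 23 cells. AML lay below PBS in all 3 phases and in 7 of the authors' 9 clusters, the groups overlapping in cluster 0 and AML lying above in cluster 7. AML had 1 library in clusters 5 to 8, and PBS had 2 in clusters 6 to 8. In G1 alone, the ratio was 0.213 and 0.331 in AML and 0.378, 0.392 and 0.508 in PBS.

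No member passed the test gene by gene. With edgeR's quasi-likelihood test on summed counts and Benjamini-Hochberg adjustment over 14364 genes, 0 of the 107 members were called, at a background of 0.16% of all genes in either direction, and 7 had an unadjusted p under 0.05, where 10.5% of all genes did. DESeq2 and limma-voom also called 0.

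Of the 13 mitochondrial genes, 10 had a lower fitted level in AML (background 53%), with a median log2 fold change of -0.43 against -0.03 over all genes tested. Values per gene are CPM on the TMM-normalized library size. For mt-Cytb, the only mitochondrial subunit of complex III, levels were 2672, 2686 and 3597 CPM in PBS and 1758 and 2314 CPM in AML. For mt-Co1, the catalytic core of complex IV, they were 1598, 2485 and 2364 CPM in PBS and 1287 and 1584 CPM in AML. For mt-Nd4, a proton-pumping subunit of complex I, they were 511, 639 and 685 CPM in PBS and 438 and 449 CPM in AML. In these 3 genes the AML libraries lay below all PBS libraries, a pattern that 17.4% of all genes tested showed. Their log2 fold changes were -0.55 ± 0.31 for mt-Cytb, -0.58 ± 0.31 for mt-Co1 and -0.46 ± 0.27 for mt-Nd4 (SE), with adjusted p of 0.538, 0.522 and 0.549 by edgeR.

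The other mitochondrial genes overlapped between groups. The complex IV core subunits mt-Co2 and mt-Co3 and the complex V subunit mt-Atp6 had log2 fold changes of -0.43, -0.68 and -0.43, and the complex I subunits mt-Nd1, mt-Nd2, mt-Nd3 and mt-Nd5 ranged from -0.69 to -0.10. The remaining 3 had positive values. For mt-Nd4l, levels were 23.5, 49.9 and 48.1 CPM in PBS and 103.8 and 37.2 CPM in AML, so that the value of 0.74 came from AML replicate 1, and without that library it was -0.10. For mt-Nd6 and mt-Atp8, at most 13.4 CPM in any library, the values were 0.20 and 0.26, and both turned negative without AML replicate 1 and without PBS replicate 1.

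Nuclear members had a median log2 fold change of 0.09 in AML, with 60 of 94 above 0 (background 47%), but of -0.02 without AML replicate 1. By complex, the medians of the nuclear subunits were 0.07 in complex I, -0.11 in complex II, -0.03 in complex III, 0.31 in complex IV and 0.09 in complex V. The iron-sulfur subunit of complex II, Sdhb, stood at 314, 230.4 and 351 CPM in PBS and 400.1 and 310.0 CPM in AML. Sdhd, its membrane anchor, stood at 113.5, 122.8 and 125.5 CPM in PBS and 106.9 and 111.1 CPM in AML, both AML values below all PBS values.

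Among the most abundant nuclear subunits of the other complexes, none had an adjusted p under 0.05. Ndufa4, a complex IV subunit despite its name, was at 1787, 1694 and 2776 CPM in PBS and 3515 and 1953 CPM in AML, and Cox8a at 1145, 1315 and 1745 CPM against 2058 and 1410 CPM. For both, AML replicate 1 was the highest library and AML replicate 3 lay inside the PBS range, and without AML replicate 1 the log2 fold change of Ndufa4 turned from 0.39 to -0.08. The ATP synthase genes Atp5g2, which encodes the c-ring subunit, and Atp5e had log2 fold changes of -0.06 and 0.08, the complex III genes Uqcrh and Uqcrb -0.25 and 0.00, and the complex I genes Ndufb8 and Ndufa7 0.08 and 0.48. Without AML replicate 1 the value of Ndufa7 was -0.06 and that of Atp5e -0.08, and the values of Ndufb8, Atp5e, Atp5g2 and Uqcrb each turned sign without one or more other libraries.

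**Figure D2:**
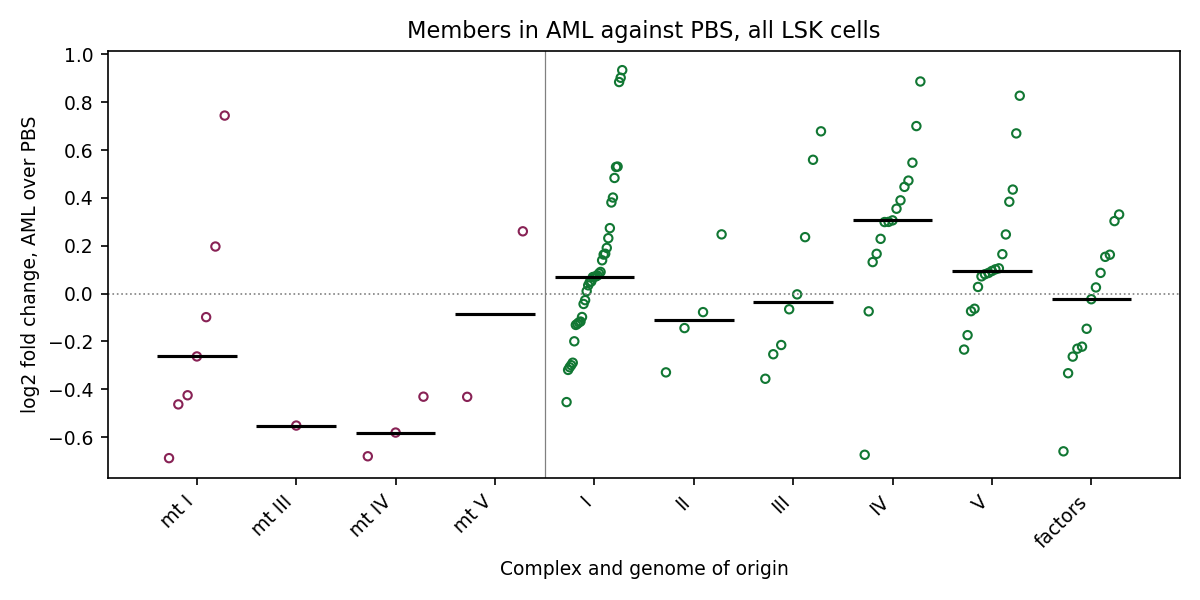
Fitted log2 fold change of AML over PBS for each of the 107 members over all LSK cells (one point per member, open because none was called), grouped by complex and by genome of origin (mt, mitochondrial), with the group median as a line and assembly and supercomplex factors as the last group. Medians lie below 0 in all 4 mitochondrial groups, and nuclear complex IV has the highest, 0.31.

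Taking the nuclear members one at a time, AML libraries lay above all PBS libraries for 3, at a background of 14.6%, and below for 7, at a background of 17.4%. On the plain library total these were 4 (background 16%) and 5 (background 13.7%). The restricted complex IV isoforms gave the lowest p-values. Cox6a2, the heart and muscle form of subunit VIa, was at 23.4, 26.8 and 45.5 CPM in PBS and 43.9 and 71.3 CPM in AML, a log2 fold change of 0.89 ± 0.29 (SE) with an adjusted p of 0.316. Cox4i2, the form of subunit IV known from lung, was at 4.26, 4.70 and 4.13 CPM in PBS and 7.74 and 6.76 CPM in AML, with no overlap and an adjusted p of 0.41. Cox6b2, the testis form of subunit VIb, was at 33.1, 46.0 and 36.4 CPM in PBS and 17.6 and 28.2 CPM in AML, also with no overlap, and with an adjusted p of 0.384. Cox7a1 was at 1.28 to 3.04 CPM in PBS and 4.13 and 2.12 CPM in AML.

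Within the classes the authors assigned, no member was called in any. The background was 0.178% of genes tested for HSC, 0.0399% for MPP-2, 0.0486% for MPP-3, 0.0325% for MPP-4. Unadjusted p was under 0.05 for 9, 3, 5 and 5 members of the 105, 107, 106 and 107 tested, at backgrounds of 4.16%, 7.56%, 7.39% and 5.93%, so that only HSC exceeded its background. DESeq2 and limma-voom called 0 in each class. The mitochondrial genes had a median log2 fold change of -0.60 in HSC, and MPP-2 stood at -0.44, MPP-3 at -0.38, MPP-4 at -0.43. The nuclear members had medians of -0.25, -0.04, 0.14 and -0.02 in the same order. In HSC, AML lay below PBS for 37 of the 105 members tested (background 16.3%) and above for 1 (background 11%) on the TMM scale. On the plain library total it lay below for 12 (background 7.19%) and above for 1 (background 19.5%), the nuclear median was -0.04 where that of all genes was 0.12, and the nuclear share was 2.60% to 3.23% in AML against 2.59% to 3.18% in PBS, overlapping. The AML value rests in part on the 23 cells of AML replicate 1.

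The effect of AML differed between classes for 2 of 107 members, at a background of 0.872% of 12734 genes, in a fit with the library as a block. Unadjusted p was under 0.05 for 44 members, all nuclear, at a background of 10.8%, and for 23 with the plain library size, at a background of 8.57%. Both encode small nuclear subunits of complex III. For Uqcr11 (chromosome 10, 80402997 to 80406830, GRCm38), the fitted AML effect exceeded that in HSC by 0.39 (MPP-2), by 0.70 (MPP-3) and by 0.33 (MPP-4) on the log2 scale, with an adjusted p of 0.0244 by edgeR. In HSC, levels of Uqcr11 were 335, 409 and 585 CPM in PBS and 527 and 356 CPM in AML, and in MPP-3 they were 318, 442 and 609 CPM against 1074 and 533 CPM. AML replicate 1 was the highest library in MPP-3 and lay inside the PBS range in HSC.

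For Uqcr10 (chromosome 11, 4701973 to 4704342), the same differences were 0.32, 0.69 and 0.40, with an adjusted p of 0.0439. Both calls were lost without AML replicate 1, where the adjusted p was 0.0742 for Uqcr11 and 0.0741 for Uqcr10, without PBS replicate 1, at 0.243 and 0.374, and without PBS replicate 3, at 0.119 and 0.155. Uqcr10 also lost its call without AML replicate 3, at 0.386. With the plain library size, the adjusted p was 0.142 for Uqcr11 and 0.179 for Uqcr10, and both were 1 without the library block and in G1 cells alone.

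Most nuclear members were higher in MPP-2 and MPP-3 than in HSC, and a minority in MPP-4. Compared with HSC within libraries, 86 of 94 nuclear members were higher in MPP-2 and 80 in MPP-3, with none lower, and 25 were higher and 2 lower in MPP-4. The median log2 fold change over nuclear members stood at 0.64 for MPP-2, 0.54 for MPP-3, 0.14 for MPP-4, against -0.03, -0.02 and 0.00 over all genes. Over all members, 87 were higher and 2 lower in MPP-2 (backgrounds 28.3% and 27.8%), 81 and 1 in MPP-3 (25.5% and 24.2%) and 25 and 2 in MPP-4 (15.9% and 15.4%).

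The rise in MPP-2 reached every complex. It included 36 of 37 nuclear transcripts of complex I, 3 of 4 subunits of complex II, 7 of 8 of complex III, 13 of 15 of complex IV, 17 of 17 of complex V and 10 of 13 assembly and supercomplex factors. The factors had the lowest median, 0.31, and complex IV the highest, 0.77. Cox5a, a structural subunit of complex IV (chromosome 9, 57521274 to 57532426), was at 441, 336, 533, 457 and 410.1 CPM in HSC of PBS replicates 1 to 3 and AML replicates 1 and 3, and at 891, 816, 1170.0, 1250.0 and 995 CPM in MPP-2. Every MPP-2 value exceeded every HSC value, a log2 fold change of 1.19 ± 0.08 (SE, adjusted p = 2.811e-14 by edgeR).

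Ndufa4 and Atp5k, the e subunit of ATP synthase, were next by p in MPP-2, with log2 fold changes of 1.10 and 0.99. In MPP-3 the members with the lowest p were Cox5a (1.14), Uqcrq (1.11), a small subunit of complex III, and Atp5g1 (0.90), a gene of the c-ring subunit. In MPP-4 they were Cox6a2, Cox5a (0.56) and Ndufa4 (0.57). All of these were higher than in HSC in 5 of 5 libraries on the TMM scale.

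**Figure D3:**
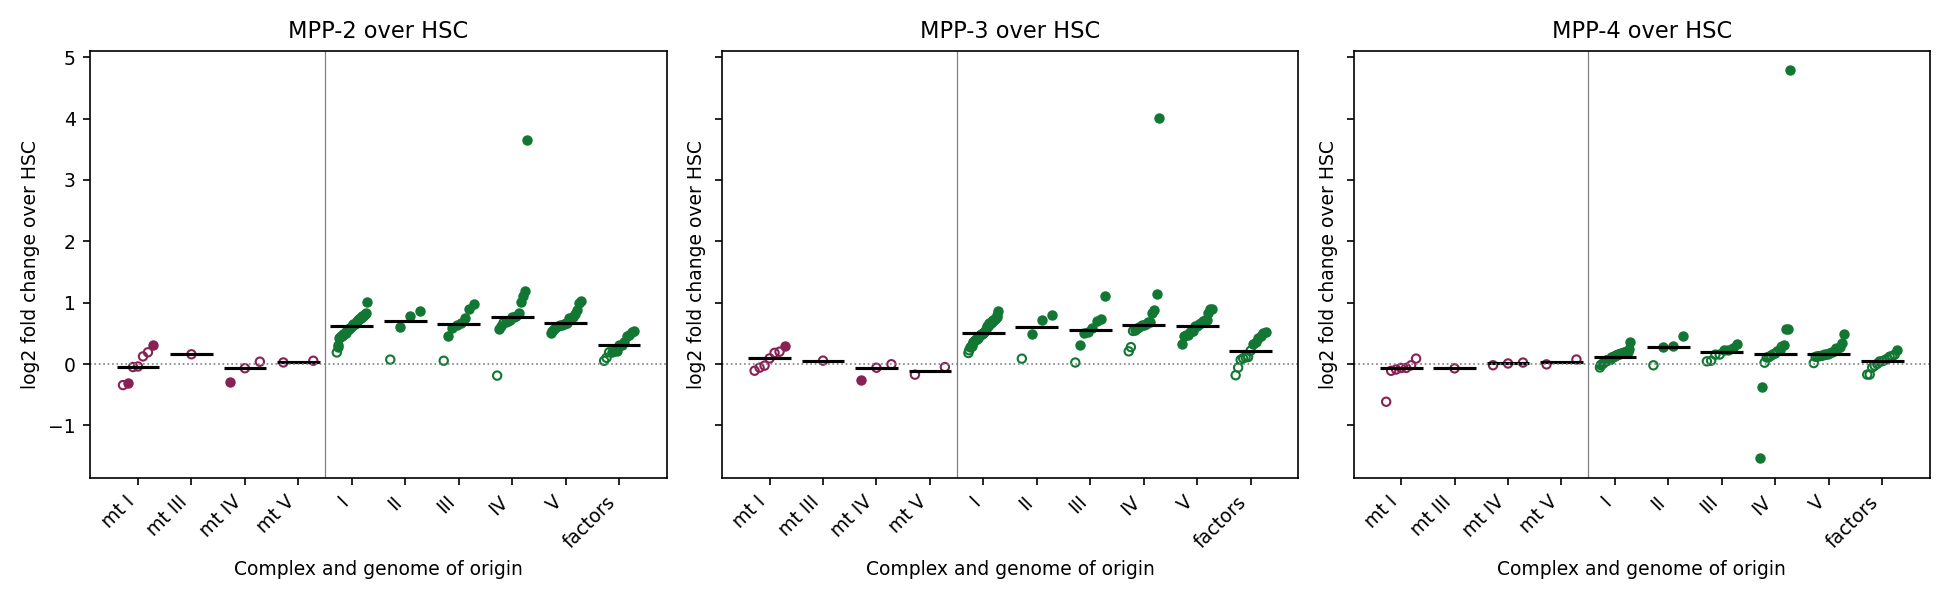
Fitted log2 fold change over HSC for each member, one panel per progenitor class, by complex and genome of origin (filled points, adjusted p under 0.05), with medians as lines. Nuclear groups lie above 0 in MPP-2 and MPP-3 while mitochondrial groups (mt) stay near 0, and the point near the top of each panel is Cox6a2.

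Of the 13 mitochondrial genes, 1 was higher and 2 were lower in MPP-2, shares below the backgrounds of 28.3% and 27.8%. Their median log2 fold change was 0.03 for MPP-2, -0.03 for MPP-3, -0.02 for MPP-4. mt-Nd1, a core subunit of complex I, exceeded HSC by 0.31 ± 0.07 (MPP-2) and by 0.30 ± 0.07 (MPP-3; SE, adjusted p = 2.89e-04 and 7.182e-04 by edgeR), and was higher in 5 of 5 libraries on the TMM scale. On the plain total, the share of all 13 mitochondrial genes was lower than in HSC, with mean log2 differences of -0.30 in MPP-2 and -0.45 in MPP-3. mt-Co1 was lower, by -0.30 ± 0.07 in MPP-2 and -0.26 ± 0.07 in MPP-3, and mt-Nd5, another complex I subunit, was lower in MPP-2, by -0.31 ± 0.08. For mt-Co1 and mt-Nd5, the exception among the 5 libraries was AML replicate 1, where mt-Co1 stood at 1188 CPM in its HSC and 1220 CPM in its MPP-2. The ratio of mitochondrial to nuclear UMIs was lower than in HSC in 5 of 5 libraries in all 3 progenitor classes, with means of 0.399 ± 0.099 for HSC, 0.239 ± 0.060 for MPP-2, 0.253 ± 0.073 for MPP-3 and 0.338 ± 0.082 for MPP-4 (SD, n = 5).

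These folds are relative to a TMM scale. With the plain library size, the median of all genes moved to -0.29 in MPP-2 and -0.36 in MPP-3, the mitochondrial median to -0.26 and -0.41, and calls in MPP-3 split into 41 higher and 13 lower (backgrounds 11.3% and 49.1%) and in MPP-4 into 7 higher and 4 lower (10.6% and 18.6%). Classes also differed in phase and depth: 15.13% of HSC and 88.47% of MPP-2 cells were outside G1, with median totals of 3398 and 6709 UMIs. Among G1 cells alone, 53 members were higher in MPP-2 (background in G1 cells 6.13%, with 3.79% lower) and 62 in MPP-3 (14.2%, with 11.6% lower), with no member lower, and the nuclear medians were 0.32 in both. This depended on the scale. With G1 cells and the plain library size together, chosen after seeing the data, 4 members were higher and 0 lower in MPP-2 (backgrounds 1.61% and 3.97%), and 3 were higher and 31 lower in MPP-3 (backgrounds 3.9% and 51.5%), where the nuclear median was -0.19 and that of all genes -0.45. The authors assigned classes from signature scores in the same cells, and whether a member was a signature gene was not given in the sources used here.

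The restricted isoforms of complex IV are given one by one. Cox6a2 (chromosome 7, 128205435 to 128206387) was nearly absent from HSC, with 12, 0 and 6 UMIs in PBS replicates 1 to 3 and 4 and 11 UMIs in AML replicates 1 and 3, or 2.41, 0, 1.69, 65.3 and 4.70 CPM of the plain total. The 65.3 CPM of AML replicate 1 are those 4 UMIs, in 23 cells. In MPP-4, it was at 46.8, 43.3, 78.6, 54.2 and 131.0 CPM in the same libraries, above HSC in all but AML replicate 1 on this scale. The log2 fold change over HSC was 3.66 ± 0.39 for MPP-2, 4.01 ± 0.41 for MPP-3, 4.79 ± 0.35 for MPP-4 (SE, adjusted p = 2.788e-09, 1.734e-09 and 1.5e-12 by edgeR), and 5.03 in MPP-4 without AML replicate 1. Its ubiquitous counterpart Cox6a1 ranged from 204 to 249 CPM in MPP-4 and from 97.9 to 217 CPM in HSC.

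Cox4i2 and Cox6b2 went the other way in MPP-4, where they were the 2 members lower than in HSC. Cox4i2 was at 6.63, 7.41, 4.51, 0 and 12.4 CPM in HSC and at 2.34, 3.04, 1.75, 2.85 and 2.88 CPM in MPP-4, a log2 fold change of -1.53 ± 0.26 (SE, adjusted p = 1.623e-05 by edgeR). The HSC value of 0 was that of AML replicate 1. Cox6b2 fell by 0.37 ± 0.13 in MPP-4 (adjusted p = 0.0349) whereas MPP-2 exceeded HSC by 0.68 ± 0.12 (adjusted p = 2.16e-05). The MPP-4 call of Cox6b2 was lost with DESeq2, limma-voom, thinned cells, G1 cells alone and no library block, and without each of PBS replicates 1 to 3 and AML replicate 1, over which the log2 fold change ran from -0.45 to -0.24.

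**Figure D4:**
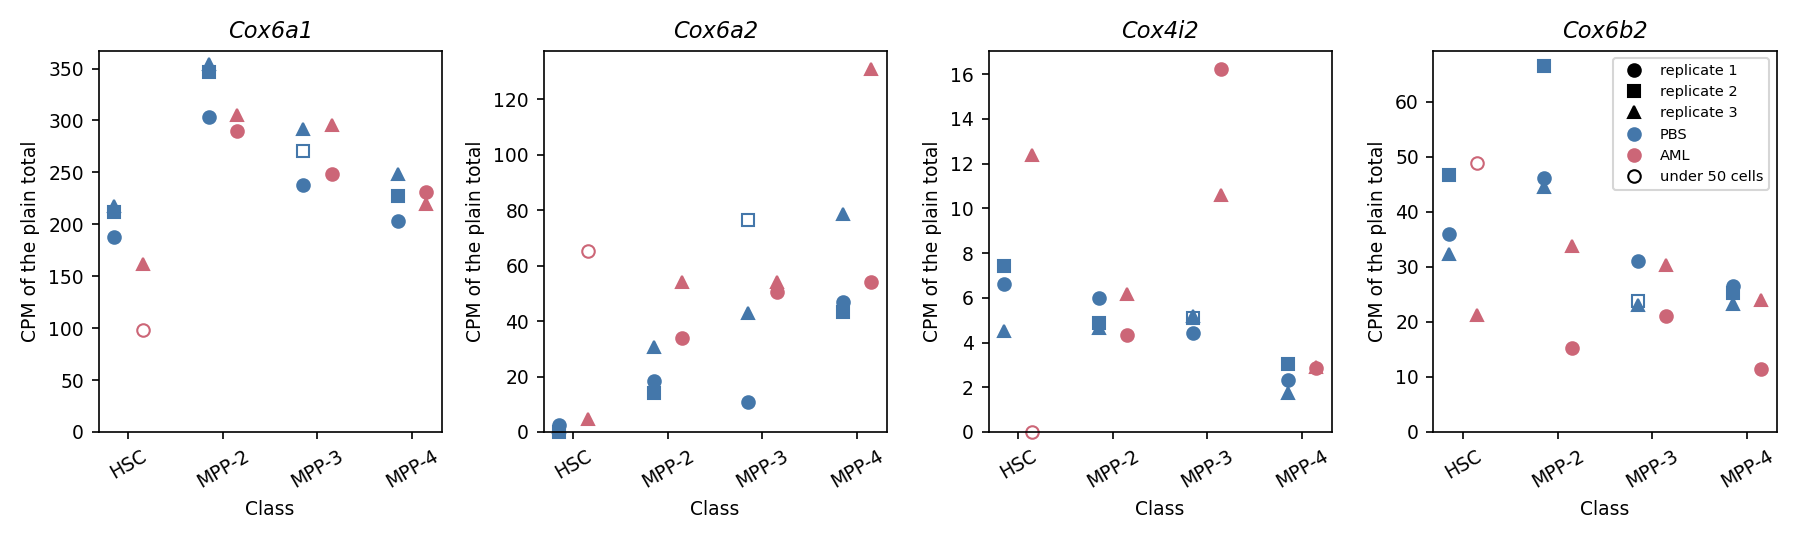
CPM of the plain total for Cox6a1, Cox6a2, Cox4i2 and Cox6b2 by class and library, PBS to the left and AML to the right within each class (open points, under 50 cells; axes start at 0). Cox6a2 lies under 5 CPM in HSC of every library with 50 or more cells and at 43.3 to 131.0 CPM in MPP-4, while Cox4i2 is lowest in MPP-4 in every library but AML replicate 1, with its 23 HSC cells at 0.

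Cells that the authors placed in S or G2M were compared with those in G1 within the same library and class. In S, 83 of 105 members tested were higher and 7 lower (backgrounds 30.4% and 29.9%), over 17 library and class pairs. The pairs are classes of 5 libraries and are not independent, so SEs and p-values over them may be too small. In G2M, 78 were higher and 5 lower (backgrounds 24.8% and 21.5%), over 13 pairs. Nuclear members had medians of 0.33 in S and 0.29 in G2M, while the mitochondrial genes stood at -0.02 and 0.02. With 1 sum per library and phase instead, a fit chosen after seeing the data that does not hold class constant, 90 of 107 members were higher and 6 lower in S (backgrounds 30% and 31.1%) and 91 and 3 in G2M (28.4% and 29.2%), and Cox5a in S stood at 0.97 ± 0.04 (SE, adjusted p = 7.345e-17 by edgeR). All 17 nuclear subunits of complex V and all 14 tested of complex IV were higher in S.

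Cox5a had the lowest p in S, at a mean of 966 ± 259 CPM against 585 ± 172 CPM in G1 (SD over pairs), and was higher in 17 of 17 pairs, a log2 fold change of 0.75 ± 0.04 (SE, adjusted p = 1.877e-23 by edgeR). Atp5g1 and Atp5g3, genes for the c-ring subunit of ATP synthase, were next by p, with 0.66 and 0.58, and the assembly factor Ndufaf2 had the largest fold, 0.80. In G2M another gene for the same subunit, Atp5g2, had the lowest p, with a log2 fold change of 0.59, higher in 13 of 13 pairs, followed by p by Cox7a2 (0.53) and Cox5a (0.57). Larger folds with higher p were those of Cox6b2 (0.75) and Atp5k (0.60).

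A few members were lower outside G1. mt-Co1 fell by 0.30 in S, lower in 16 of 17 pairs, and by 0.24 in G2M. In S, Uqcrh, the hinge subunit of complex III, fell by 0.23 and the complex I assembly factor Ndufaf3 by 0.49. Another assembly factor, Ndufaf4, was higher in S (0.54) and lower in G2M (-0.32), the latter call lost without PBS replicate 1 (-0.23). mt-Nd1 was higher in both, by 0.26 and 0.19, and mt-Cytb by 0.11 and 0.13, the mt-Cytb calls being lost with the plain library size (0.04 and 0.07, adjusted p = 0.337 and 0.157 by edgeR), whereas mt-Nd5 fell by 0.29 and 0.27. The ratio of mitochondrial to nuclear UMIs was lower than in G1 in 5 of 5 libraries in both phases, with means of 0.364 ± 0.107 in G1, 0.246 ± 0.065 in S and 0.250 ± 0.063 in G2M (SD, n = 5).

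**Figure D5:**
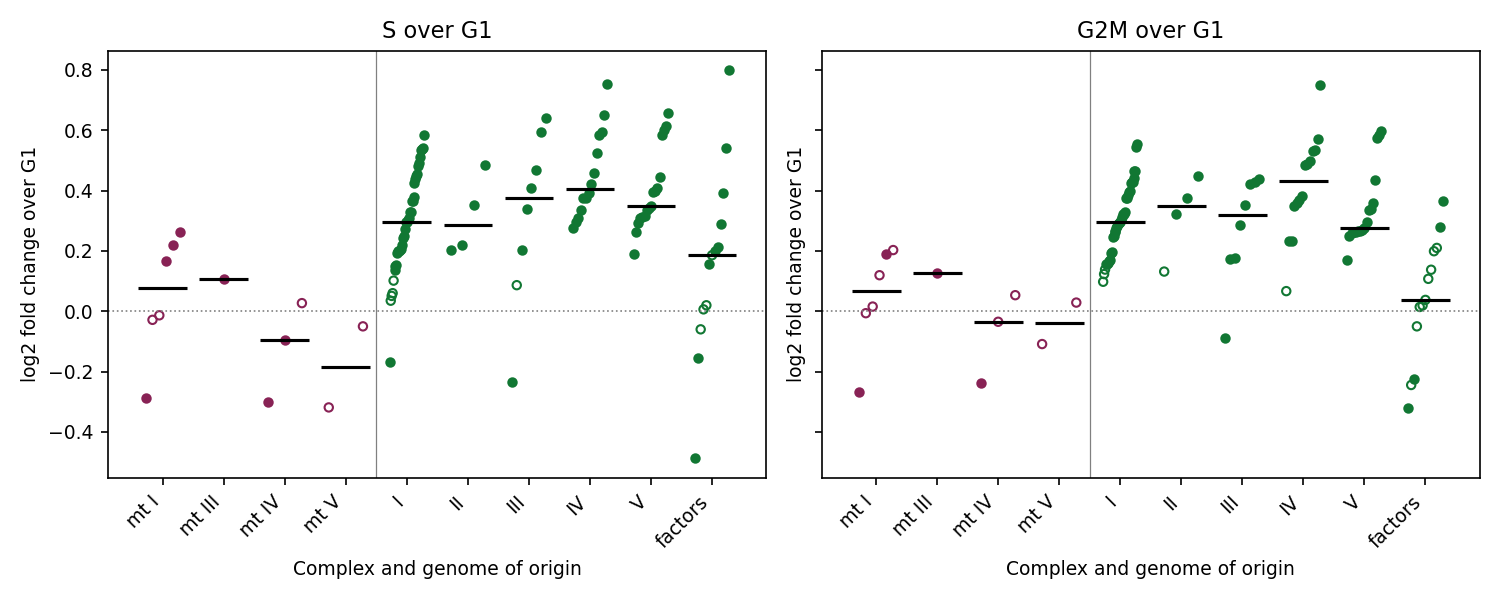
Fitted log2 fold change over G1 for each member tested in S and in G2M, by complex and genome of origin (filled points, adjusted p under 0.05), with medians as lines. Nuclear groups lie above 0 in both phases, and mitochondrial groups (mt) on both sides of 0.

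Clusters are given as a description only, since they were made from the same cells. Over libraries with at least 20 cells, the nuclear share had its lowest median in cluster 6, at 1.36% of UMIs, where the mitochondrial share was also lowest, at 0.368%, with a median total of 8667 UMIs per cell. It was highest in cluster 7, at 4.28%, and cluster 4, at 4.10%. The ratio was highest in cluster 0, with a median of 0.383 over 5 libraries and a range of 0.197 to 0.490, and lowest in cluster 7, at 0.195 over 3 libraries. Cluster 0 held 6367 cells and clusters 6 and 7 held 177 and 102.

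Other genes of mitochondrial biogenesis were read from lists outside the rule, of which Cycs, Tfam and Nrf1 are named after their values were seen. In AML against PBS, 0 were called in each of 5 lists. In MPP-2 against HSC, where 28.3% of all genes were higher and 27.8% lower, 75 of 78 mitochondrial ribosome genes were higher and none was lower, with a median of 0.60, as were 9 of 14 tricarboxylic acid cycle genes, with a median of 0.41. A list of 28 genes for expression of the mitochondrial genome covered its transcription, RNA handling and DNA replication or maintenance. Of these, 6 were higher and 2 lower, with a median of 0.06, a share of higher genes below that over all genes. Tfam, which packages mitochondrial DNA and activates its promoters, was higher by 0.41 (adjusted p = 2.394e-04 by edgeR). Of 37 genes in a mixed list of cytochrome c, Cyc1 and factors of complexes I, III, IV and V outside the rule, 22 were higher and 1 lower, and Cycs, which encodes the cytochrome c that links the complexes, was higher by 1.51 (adjusted p = 4.02e-14). Of 12 upstream regulators, 4 were higher and none lower, Nrf1 by 0.39.

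In S against G1, where 30.4% of all genes were higher and 29.9% lower, the same lists had 65 of 78 mitochondrial ribosome genes higher and 1 lower, 10 of 14 tricarboxylic acid cycle genes higher, 7 of 26 expression genes higher and 2 lower, 20 of 36 genes of the mixed list higher and 2 lower, and 5 of 11 regulators higher and 1 lower. The share of higher expression genes was again below that over all genes. Cycs was higher by 1.20 in S (adjusted p = 1.219e-24 by edgeR).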

How the data were processed

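Per the labels, bone marrow HSPCs were sorted as Lin- cKit+ Sca1+, prepared with Chromium GEM V3 chemistry, and processed by the authors with Cell Ranger 7.0.1 on GRCm38 (mm10) and with Seurat 4.3.0 in R 4.2.2. The deposited values used are raw counts (UMIs) per gene and barcode, with the authors' cell table giving the library, class, phase and cluster of each cell. Doublet treatment was not given in the sources used here, and no caller was run. The percent of mitochondrial UMIs per cell was computed by the authors and equalled the value recomputed here from the deposited counts. The 18 columns of the cell table with other values were not used.

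UMIs were summed over each library's kept cells, and over class or class and phase where at least 20 cells were held. Sums were tested with edgeR 4.0.16 (quasi-likelihood, TMM, filterByExpr, Benjamini-Hochberg over all genes tested, called at an adjusted p under 0.05) in R 4.3.3, with the library, or the library and class, as a block for classes and phases. CPM are on TMM sizes and differ between fits. DESeq2 1.42.0 and limma-voom (limma 3.58.1) were alternatives. Scripts were tested on simulated data. Shares were compared by exact permutation over libraries. Total counts per library, 1945659 to 32123508, set the precision, and AML replicate 1 was the shallowest. The planned 3 against 3 became 3 against 2. Thinning drew 2000 UMIs per cell.

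Members and gene lists were chosen with earlier results of these data known. Named are all mitochondrial members, the 2 most abundant nuclear subunits of each complex, the restricted isoforms, members called in AML against PBS or differing between classes, and the 3 members with the lowest p in each direction of each class and phase comparison. Other named genes were chosen after their values were seen. Replicate numbers were not used to pair libraries in the main tests. Deviations of same-numbered libraries correlated at -0.0574 and -0.0547. With 2 AML libraries these mirror the 0.0574 and 0.0547 of differently numbered ones, so they cannot show whether libraries were paired.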

Additional observations from a re-analysis of the deposited data

Results flagged for a closer look

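The effect of AML differed between classes for Uqcr11 (adjusted p = 0.02437 by edgeR) and Uqcr10 (adjusted p = 0.0439), as tested by the class by treatment term. Both are small subunits of complex III, and neither was called in any class alone.

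Barcodes outside the authors' cell table, which entered only the alternative with an own filter where they passed it, also held member transcripts. In AML replicate 1 the nuclear members took 4.2044% of the UMIs of such barcodes, above the 3.06% to 3.71% of the PBS libraries, while AML replicate 2 lay below them at 2.98% and AML replicate 3 within them at 3.14%. In the same barcodes the groups overlapped in the ratio of mitochondrial to nuclear UMIs, with AML replicate 3 at 0.311 and PBS replicate 1 at 0.307, and in the mitochondrial share, at 0.976% and 0.941%. In AML replicate 2, absent from the table, the 106 cells of the own filter gave 3.749%, barely above the 2.98% to 3.74% of PBS libraries under that filter, where AML replicate 1 stood at 4.25% and AML replicate 3 within the PBS range at 3.30%. Of the 106 cells of AML replicate 2, 75 carried a barcode also found in another library. Over all its barcodes, AML replicate 2 stood at 2.98%, below every PBS library.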

How the results depend on the processing

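Every alternative kept the direction of the 3 share differences, and the ratio ran from -1.05 to -0.38 on the log2 scale when 1 library was left out. The count of members called in AML against PBS was 1 with no filter on low counts (1.82% of all genes called) and 0 to 2 without 1 library, the 2 without AML replicate 3 (2.95%), which leaves 1 AML library assumed to vary like the PBS libraries. In MPP-2 it was 1 with no filter (0.81%). With the replicate number as a block it was 0 over all LSK cells and in each class, while calls over all genes went from 23 to 91, and the share differences were -0.40, 0.20 and -0.60. Whether same-numbered libraries were paired could not be told from the correlations of -0.0574 and -0.0547, which 2 AML libraries force to mirror each other.

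Members differing between classes numbered 0 with the plain library size (0.652% of all genes), 20 with no filter (2.35%), 0 with no replicate block, 0 in G1 cells only (0.213%), and 0 to 6 without 1 library (0.239% to 1.5%). Members called in MPP-2 against HSC numbered 53 in G1 cells only (9.92% of all genes). In MPP-3 they numbered 54 with the plain library size (60.4%) and 54 with no replicate block (26.8%). In MPP-4 they numbered 11 with the plain library size (29.2%), 5 with no replicate block (11.6%), 9 with thinned cells (21.2%), 16 in G1 cells only (24.8%), and 12 to 31 without 1 library (23.3% to 33.3%), with 12 without PBS replicate 3 and 17 without AML replicate 3. In G1 cells with the plain library size, chosen after seeing the data, they numbered 4 in MPP-2 (5.58%), 34 in MPP-3 (55.4%), of which 31 were lower, and 6 in MPP-4 (20.7%). In G2M against G1 they numbered 54 with no replicate block (30.8%). The cause was not tested in these cases.

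Fold changes of named genes turned sign 39 times, 37 of them among genes not called in AML against PBS. Leaving out 1 library, the log2 fold change ran from -0.15 to 0.90 for mt-Atp8, -0.097 to 1.37 for mt-Nd4l, -0.21 to 1.00 for mt-Nd6, -0.080 to 0.76 for Ndufa4, -0.059 to 0.89 for Ndufa7, -0.13 to 0.087 for Atp5g2, -0.14 to 0.37 for Atp5e, -0.084 to 0.22 for Uqcrb and -0.087 to 0.35 for Ndufb8. The sign turned without AML replicate 1 for mt-Atp8, mt-Nd4l, mt-Nd6, Ndufa4, Atp5e and Ndufa7, without PBS replicate 1 for mt-Atp8, mt-Nd6 and Atp5e, without PBS replicate 2 for Ndufb8, without PBS replicate 3 for Atp5g2 and Uqcrb, and without AML replicate 3 for Uqcrb. In G1 cells of MPP-4 alone, chosen after seeing the data, the values were -0.36 for mt-Atp8, -0.084 for Ndufa4, -0.088 for Cox8a, -0.23 for Atp5e, -0.34 for Ndufb8, -0.11 for Ndufa7 and -0.087 for Sdhb. With thinned cells they were 0.018 for mt-Nd1, -0.20 for mt-Nd6 and 0.069 for Uqcrb, and with equal class composition -0.27 for mt-Nd6, -0.041 for Atp5e and -0.0050 for Ndufb8. Without shared barcodes, also chosen after seeing the data, they were 0.074 for Atp5g2, 0.11 for Uqcrb and 0.031 for Sdhd. With the own filter on 6 libraries they were -0.0048 for Atp5e and -0.016 for Ndufb8, and with the replicate block -0.088 for Ndufb8. Uqcrb, at -0.0034, also turned with DESeq2 (0.011), limma-voom (0.034), the plain library size (0.032), clusters 6 to 8 left out (0.0099) and mitochondrial genes left out (0.013). mt-Nd5 in MPP-2 against HSC turned in G1 cells only (0.028), and Atp5g1 in MPP-3 against HSC in G1 cells with the plain library size (-0.020). A further 37 results of named genes kept their direction but lost their call, and 1, Cox6a2 in AML against PBS with no filter, gained one. Cox4i2 gave no thinned value in MPP-4.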
